A study of Drosophila melanogaster with 12 samples.

Results

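RNA bound to Caper in the adult *Drosophila* head was measured by immunoprecipitation with a polyclonal rabbit antibody against Caper, followed by sequencing of the RNA (RIP-seq). The comparison sets 3 Caper IP libraries against the 3 input libraries made from the same lysates, which are 6 of the 12 libraries of the series. The sample titles name the input of each IP, and each pair of the same number was kept together. All 12 libraries came from heads of Hsp70Gal4 x UASCaperFlag flies, held at 37 °C for 2 h and then at 30 °C overnight to induce FLAG-tagged Caper. The heat shock driver is not restricted to neurons, and every library, inputs included, carries the transgene and the heat shock. A FLAG antibody was used for the other 3 IPs, which have 3 inputs of their own. No mock IP was sequenced in the libraries analysed here, so a difference between IP and input covers everything that separates the RNA on the beads from the RNA of the lysate. Sex, age and the number of heads in a library are not given in the sources used here. Nothing says that the 3 pairs came from separate flies, so p-values measure the spread of the IP over input ratio between these pairs, which may be technical. Where the pairing is left out, they measure the spread between libraries.

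Caper is an RNA-binding protein and splicing factor, the ortholog of human RBM39. It carries RNA recognition motifs arranged much as in the large subunit of U2AF, which reads the polypyrimidine tract before the 3′ splice site. In RIP-seq an RNA that goes with the protein takes a larger share of the IP than of the input, and an RNA that does not takes a smaller one. All values are relative shares of a library, and they cannot tell fewer cells of a type from less RNA per cell.

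The inputs held 10867532, 10746027 and 12401744 counts and the IPs 34264177, 24366807 and 23907193. A count is a read pair assigned to the exons of 1 gene, and CPM scales the counts of a gene to a library size common to all libraries, by the usual definition of that unit. Read pairs assigned to genes made up 22.7% to 26.2% of the alignments in the inputs and 69.3% to 72.4% in the IPs, while 71.7% to 75.2% and 21.7% to 24.7% mapped to several places and were not counted. The head tissue was reflected in its markers, since *ninaE*, the rhodopsin of the outer photoreceptors, held the largest share of counts of any protein-coding gene in the inputs, 2.28% on average. The deviations of libraries from their group means across the 10778 genes tested correlated within pairs 1 and 3 (Pearson r of 0.783 and 0.656) but little within pair 2 (0.102), where IP 2 correlated more with input 3 (0.595). Of 9 germline markers, 5 had enough counts to be tested, and *bam* and *vas* stood at no more than 2.76 CPM in any library. *betaTub85D*, *dj* and *Mst84Da* were tested too, and their levels are not given here. None of the 5 was called in either direction.

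Of 17612 genes in the table, 10778 had enough counts to be tested. With each pair as a block, 1708 genes (15.8%) were higher in the Caper IP than in the input and 1599 (14.8%) were lower, at an adjusted p-value below 0.05 (edgeR). All but 2 of these 3307 genes moved the same way in all 3 pairs, which follows largely from calling them on these same pairs. Without the block, which leaves the variation between lysates in the error, 682 were higher and 812 lower, all of them also called with it. Without pair 2 the counts were 848 higher and 948 lower, and without pair 3 they were 487 and 693. Scaling by library size alone turned the split to 2944 higher and 1008 lower. The changes were lopsided in size. Only 110 genes were higher by 2-fold or more, against 362 lower, and 3 were higher by 4-fold or more, against 142 lower. The median log2 fold change was 0.52 among the genes called higher, -0.57 among those called lower and 0.02 over all genes tested.

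**Figure D1:**
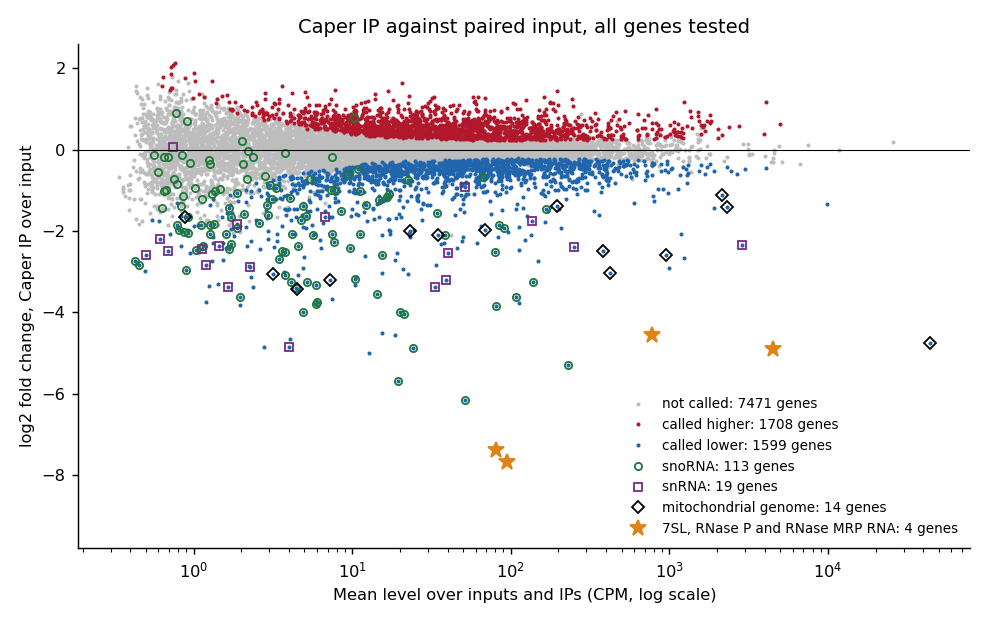
Each point is 1 of 10778 genes, with its mean level over inputs and IPs in CPM (log scale) on the horizontal axis and its log2 fold change of Caper IP over input on the vertical axis. Genes called higher (1708) reach at most 2.13 on the log2 scale, while the decreases reach -7.67, at 7SL RNA.

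The lowest values belonged to RNAs of stable noncoding ribonucleoproteins. 7SL RNA, the scaffold of the signal recognition particle, had the largest decrease of all genes tested. *7SLRNA:CR32864* (FBgn0000003, 3R from 6822500 to 6822798, in the genome release of the files) stood at 184, 193 and 189 CPM in inputs 1, 2 and 3 and at 1.18, 0.776 and 0.725 CPM in IPs 1, 2 and 3, which is 204-fold lower (log2 fold change -7.67, standard error 0.15, adjusted p = 4.14e-06 from edgeR). Its neighbour *7SLRNA:CR42652*, a near-identical copy, had a log2 fold change of -7.39. Read pairs that map to both copies were not counted. The RNA of RNase MRP, a nuclease that cuts precursor ribosomal RNA, was among the most abundant RNAs of the input. It held 0.671, 0.878 and 0.937% of the input counts and 0.0196, 0.0363 and 0.0389% of the IP counts, which is 30.1-fold lower (log2 value -4.91 with a standard error of 0.15, adjusted p = 2.27e-05). RNase P RNA, the catalytic RNA that trims transfer RNA precursors, was lower by 23.5-fold. In each of these RNAs the 3 inputs lay close together, and all 3 IPs lay far below every input.

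Small nucleolar RNAs, which guide methylation and pseudouridylation of ribosomal RNA, and the small nuclear RNAs of the spliceosome were lower as classes. Of 113 snoRNAs tested among 271 in the table, 81 were lower and 1 was higher, with a median log2 fold change of -1.62. The lowest was *snoRNA:CG32479-a*, at 96.3, 105 and 102 CPM in the inputs and 1.54, 1.55 and 1.13 CPM in the IPs. *snoRNA:Psi28S-291* went from 436, 457 and 454 to 12.7, 11.6 and 9.74 CPM. The exception was *snoRNA:Me28S-A1322*, at 5.53, 8.31 and 8.40 CPM in the inputs and 6.54, 17.4 and 15.7 CPM in the IPs (log2 fold change 0.77, adjusted p = 0.019). Its groups overlapped, because input 1 and IP 1 were both lower than the rest, and it was not called without the block, without pair 2 or without pair 3. Without pair 3, 51 snoRNAs were lower and none higher, and with a correction for gene length 38 were lower and 9 higher.

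Of 19 small nuclear RNA genes tested, 18 were lower and none was higher, with a median of -2.44. They included the U1, U2, U4 and U5 RNAs of the major spliceosome and the U11, U12 and U4atac RNAs of the minor one. U11, which recognises the 5′ splice site of minor introns, stood at 204.7, 204 and 221 CPM in the inputs and 57.8, 62.0 and 65.5 CPM in the IPs (log2 fold change -1.76, adjusted p = 5.24e-05). *snRNA:U4atac* was lower by 9.28-fold and *snRNA:U4:39B* by 10.4-fold. Several U1 and U2 genes are near-identical copies, so their single values are uncertain. Without pair 3, 11 of the genes were called lower, the same number as with a correction for gene length.

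**Figure D2:**
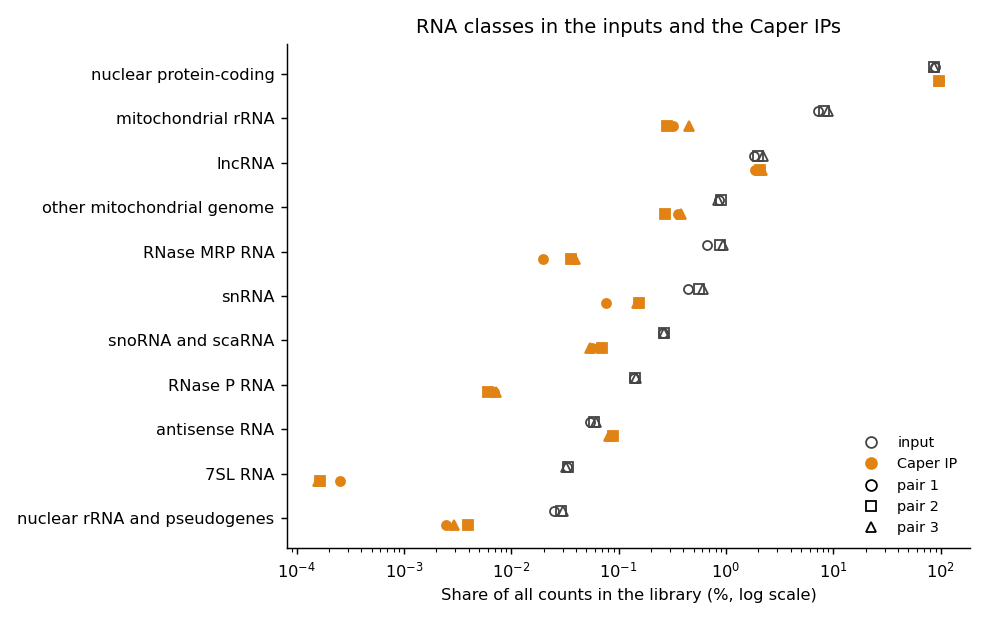
Share of all counts taken by each RNA class (percent of the library, log scale) in the 3 inputs (open grey) and the 3 Caper IPs (filled orange), with the symbol marking the pair. Structural noncoding RNAs and the mitochondrial genome lie to the left in every IP, and nuclear protein-coding genes go from 85.9% to 88.4% of the inputs to 96.6% to 97.2% of the IPs.

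RNA of the mitochondrial genome, which is transcribed and translated inside the organelle, was lower for all 14 genes tested. Its large ribosomal RNA, *lrRNA*, was the most abundant feature of the inputs, at 73842, 87102 and 93216 CPM, and stood at 2895, 2454 and 4212 CPM in the IPs, a decrease of 27.2-fold (standard error 0.20 on the log2 scale, adjusted p = 5.7e-05). The messenger RNAs fell less than *lrRNA*, and so did the small ribosomal RNA, *srRNA*, with a log2 fold change of -2.50. *ND1*, a subunit of respiratory complex I, was at 764, 728 and 765 CPM in the inputs and 110.5, 103 and 67.3 CPM in the IPs, with a log2 fold change of -3.03. *ND5* and *ATP6*, an ATP synthase subunit, fell by 1.97 and 2.09 on the log2 scale. *COX2* had a wider spread, with log2 ratios of -2.36, -3.48 and -1.96 in pairs 1, 2 and 3. Both mitochondrial ribosomal RNAs together took 7.19, 8.26 and 8.82% of the input counts and 0.317, 0.279 and 0.447% of the IP counts.

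Long noncoding RNAs, most of which are made like messenger RNAs, had medians above 0. Of 311 lncRNA genes tested, 43 were higher and 12 lower, with a median of 0.24, and of 186 antisense RNAs 21 were higher and 3 lower, with a median of 0.29. Their share called higher is below the 15.8% of all genes, and many have few counts. *lncRNA:CR43651*, the most abundant of the 8 noncoding genes with the largest increases, stood at 27.7, 36.3 and 42.4 CPM in the inputs and 62.4, 102 and 101 CPM in the IPs (log2 fold change 1.31, standard error 0.09, adjusted p = 0.000538). *asRNA:CR45161*, with the largest log2 fold change of that group (1.42), was at 2.38, 2.97 and 2.74 CPM in the inputs and 9.64, 5.47 and 7.04 CPM in the IPs. *lncRNA:CR44842* rested on pairs 2 and 3, with log2 ratios of 0.13, 1.78 and 1.38, and was not called without the block, without pair 2 or without pair 3. The call of *asRNA:CR45161* was lost without pair 3. Among the named lncRNAs, *lncRNA:roX1*, an RNA of the dosage compensation complex of the male X, was higher by 0.43 on the log2 scale (adjusted p = 0.0345) but was not called without the block or without any 1 of the pairs, and *lncRNA:CR34335*, an abundant short RNA, was lower, with 1934, 2208 and 2207 CPM in the inputs and 249.9, 454 and 321 CPM in the IPs.

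Among protein-coding genes, 1639 of 10070 were higher and 1460 lower. The 15 with the largest increases (at least 50 counts on average, same direction in all pairs) rose by 1.25 to 1.65 on the log2 scale. Of these 15, 11 have a single exon. Among all 1037 single-exon protein-coding genes tested, 18.1% were higher and 13.3% lower, against 16.3% and 14.5% of all protein-coding genes. *Muc96D*, a mucin gene (FBgn0051439, 3R from 25397788 to 25400645), led with 9.73, 9.90 and 9.60 CPM in the inputs and 43.5, 29.03 and 22.3 CPM in the IPs, 3.14-fold higher (log2 fold change 1.65, standard error 0.18, adjusted p = 0.00219). Every IP lay above every input, with the largest value in IP 1. *lbe*, a homeobox factor, rose by 1.45, *ZIPIC*, a zinc-finger insulator protein, by 1.33, and *E(spl)m2-BFM*, a Bearded family member, and *E(spl)mbeta-HLH*, a bHLH repressor, both Notch target genes of the Enhancer of split complex, by 1.56 and 1.25. Of 4 genes of that complex tested, a set chosen after its values were seen, 2 were higher and the other two had log2 fold changes above 0.

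*Gadd45*, a growth arrest and DNA damage response gene, stood at 51.2, 109 and 143 CPM in the inputs and 110.4, 380.0 and 375 CPM in the IPs. Input and IP ranges overlapped, because both were lowest in pair 1, and its log2 ratios were 1.11, 1.81 and 1.39 (log2 fold change 1.44, standard error 0.13, adjusted p = 0.0015). *cactin*, which encodes a Cactus-binding protein that also acts in splicing, spread widely between IPs, with 90.9, 92.9 and 83.3 CPM in the inputs and 360.3, 209.9 and 135 CPM in the IPs. *Sas10*, a factor of the small ribosomal subunit processome, behaved alike, from 21.2, 16.4 and 16.8 to 65.8, 40.1 and 30.7 CPM. In both genes IP 1 was highest and IP 3 lowest, and every IP lay above every input. Without the block *Gadd45* and *CG2116* were not called. The other members were *link*, *CG12204*, *CG2116*, *mdlc*, *Mettl4*, *CG10799* and *CG15435*. All 15 were also called higher in the FLAG IP, and for none did the 2 antibodies differ by the test of the difference.

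**Figure D3:**
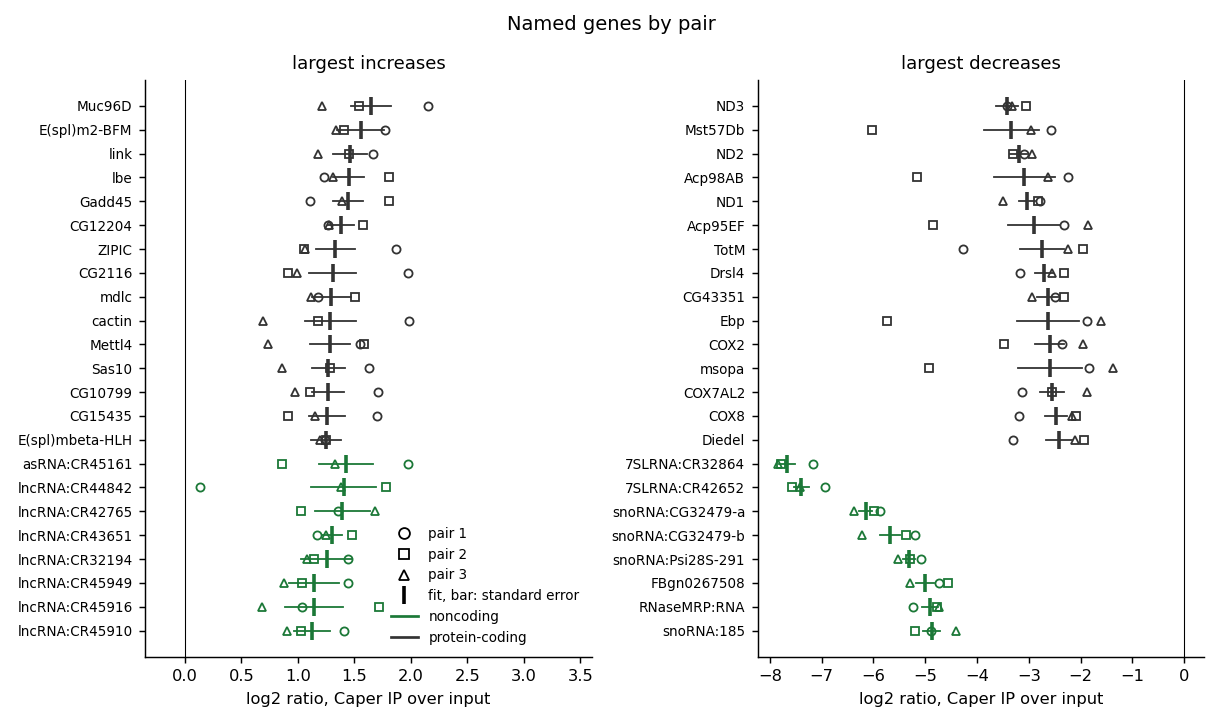
Log2 ratio of Caper IP over input in each pair (symbols) with the fitted log2 fold change and its standard error (bars) for the 15 protein-coding (black) and 8 noncoding (green) genes with the largest changes in each direction. All pairs of a gene lie on 1 side of 0 by the rule that picked the genes. *lncRNA:CR44842* is near 0 in pair 1, and for the male reproductive gene *Mst57Db* pair 2 lies far below pairs 1 and 3.

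*Caper* itself, whose counts can come from the endogenous gene and from the transgene, stood at 819.8, 1190.2 and 1101 CPM in the inputs and 1607, 2645 and 1706 CPM in the IPs. With the pairs as a block it was higher by 0.92 on the log2 scale, with a standard error of 0.12 (adjusted p = 0.00331). Every IP lay above every input.

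Genes for making ribosomes and starting translation were mostly higher. The gene lists of this report were chosen with earlier results of these data known, so their counts are descriptions only. Each list count is to be read beside the shares over all genes tested, 15.8% higher and 14.8% lower. Of 25 ribosome biogenesis genes, 18 were higher and none lower, with a median of 0.41 against 0.02 over all genes. *Surf6*, a nucleolar protein, stood at 8.20, 7.62 and 7.20 CPM in the inputs and 21.4, 17.04 and 14.5 CPM in the IPs, a log2 fold change of 1.19. *wcd*, a U3 snoRNP component, and *Non1*, a GTPase of large subunit assembly, rose by 0.97 and 0.68. Of 14 genes for eIF3, the initiation factor that holds the small subunit, 11 were higher and none lower, with a median of 0.39. *eIF3g1* had the lowest adjusted p-value of the protein-coding genes called higher and went from 152, 158 and 167 CPM to 328, 328 and 348 CPM (log2 ratios 1.11, 1.05 and 1.06, standard error 0.07, adjusted p = 0.000398). The increases of *eIF3h* and *eIF3d1* were 0.79 and 0.64. The number higher among ribosome biogenesis genes was 8 without the block and 8 without pair 3, and among eIF3 genes 5 without the block, 6 without pair 2 and 5 without pair 3.

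Cytoplasmic ribosomal protein genes, which are short and among the most expressed of all, moved in both directions. Of 50 large-subunit genes, 16 were higher and 7 lower (median 0.15), and of 36 small-subunit genes 14 were higher and 6 lower (median 0.30). *RpLP0*, of the ribosomal stalk, was at 1129, 1326 and 1403 CPM in the inputs and 2127, 2245 and 2589 CPM in the IPs, a log2 fold change of 0.85 (adjusted p = 0.00188). *RpL8*, *RpL13*, *RpS30*, *RpS9* and *RpS6* rose by between 0.60 and 0.80. The strongest decreases were *RpL38*, from 169, 238 and 246 to 32.4, 58.6 and 65.9 CPM, *RpL41*, which encodes one of the smallest proteins of the cell (log2 fold change -2.07), and *RpL39* (log2 fold change -1.64). The genes *RpS15Ab*, *RpS20* and *RpS15Aa* fell by 1.61, 0.60 and 0.52. Any read pairs that map to both paralogs, *RpS15Aa* and *RpS15Ab*, were not counted. In pair 1 the medians were -0.10 and 0.02, below those of pairs 2 and 3, which lay between 0.27 and 0.38. The higher count of large-subunit genes was 9 without the block, 9 without pair 2 and 6 without pair 3 and that of small-subunit genes 2 without the block, 6 without pair 2 and 1 without pair 3. Among those named, *RpS9*, *RpS6*, *RpS20* and *RpS15Aa* were not called without the block, and the first 3 of these were not called without pair 3. Of 7 elongation factor genes 4 were higher (none without pair 3), led by *eEF1beta* at 0.66, and 2 were lower, of which *eEF1delta* fell by 0.48. The other, *eEF5*, was not called without the block, without pair 2 or without pair 3.

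Genes for RNA processing were called in both directions. Of 23 genes for 3′ splice site recognition and SR proteins, the factors among which Caper works, 10 were higher (43.5%) and 2 lower (8.70%), with a median of 0.25. *tra*, a splicing regulator of sex determination, was at 23.4, 26.5 and 32.8 CPM in the inputs and 48.2, 65.1 and 63.7 CPM in the IPs (log2 fold change 1.10, standard error 0.09, adjusted p = 0.00127). *Sf3b1*, of the U2 snRNP, rose by 0.71 and *Srp54*, an SR protein, by 0.65, while *Sf3b5* was lower by 2.01-fold and *Rsf1*, a repressor of splicing, fell by 0.46. The number higher was 6 without the block and 6 without pair 3, and *Srp54* and *Sf3b5* were not called without the block. In the nonsense-mediated decay list *Upf1* and *Upf3* rose by 0.59 and 0.62, and *nonC*, the Smg1 kinase, fell by 0.50. Without the block *Upf3* was not called, and *Smg6* (log2 fold change 0.26) was not called without the block or without any 1 of the pairs. Of 8 genes of the exon junction and ASAP complexes, *btz* rose by 0.57. *Acn* (0.53) and *mago* (-0.46) were called in the main comparison, *Acn* not without the block, pair 1 or pair 2, and *mago* not without the block or any 1 of the pairs. Of 12 hnRNP genes none was higher and *heph*, *sm* and *HnRNP-K* were lower (4 without pair 1, 0 without pair 2 and 0 without pair 3), with a median of -0.11 that turns positive when libraries are scaled by their size alone. Regulators of neuronal messenger RNA went both ways, 4 of 12 higher and 4 lower (2 and 2 without pair 2, 1 and 1 without pair 3). *Atx2*, which encodes an ataxin-2 translational regulator, was at 499.6, 509.7 and 557 CPM in the inputs and 887, 859 and 857 CPM in the IPs (log2 fold change 0.73), whereas *orb*, *orb2* and *pum*, translational repressors or activators of localised RNAs, fell by 0.49, 0.51 and 0.33. The call of *pum* was lost without the block, without pair 2 and without pair 3, and that of *orb2* without pair 3.

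Most genes of innate immune signalling were higher. Of 18 Toll and Imd signalling genes, 13 were higher and none lower, with a median of 0.37. Along the Toll pathway, *spz*, the ligand, stood at 36.4, 47.8 and 42.4 CPM in the inputs and 57.3, 75.6 and 66.8 CPM in the IPs, with log2 ratios of 0.65, 0.66 and 0.66 (adjusted p = 0.00223). *tub*, an adaptor, rose by 0.50, and *Rel*, the NF-κB factor of the Imd pathway, by 0.49. The number higher was 8 without pair 2 and 5 without pair 3, *tub* was not called without the block, and *Rel* was not called without pair 3. None of the 8 antimicrobial peptide genes tested was higher, and *Drs* and *Mtk* were lower (0 without the block, 1 without pair 1 and 0 without pair 3, and 0 with the length correction). Among short secreted stress peptides, *TotM* of the Turandot family was at 155, 321 and 264 CPM in the inputs and 7.99, 82.4 and 55.6 CPM in the IPs (log2 fold change -2.74, adjusted p = 0.00569), lowest in IP 1. *Drsl4*, a drosomycin-like gene, was lower by 6.52-fold and *Diedel* by 5.33-fold. Every IP of these 3 genes lay below every input, and *TotM* was not called without the block.

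Of 21 nucleoporin genes, 9 were higher and none lower (median 0.35), with *Nup62* of the central channel at 19.8, 26.6 and 28.3 CPM in the inputs and 36.3, 43.1 and 43.2 CPM in the IPs. *Nup214* and *Nup98-96* rose by 0.53 and 0.53. The number higher was 3 without the block, 3 without pair 2 and 3 without pair 3, and *Nup214* was not called without the block. Among 15 transcription factors of stress and growth, 4 were higher and 1 lower (1 and 0 without pair 3). *Xrp1*, a bZIP factor of cell competition and stress, was abundant, at 2502, 2564 and 2105 CPM in the inputs and 8541, 5473 and 3381 CPM in the IPs, higher by 1.18 on the log2 scale with a standard error of 0.20 (adjusted p = 0.00759), most of all in IP 1. Neural transcription factors (8 of 36 higher, 3 lower) and chromatin regulators (8 of 32 higher, 4 lower) gave calls in both directions. For neural transcription factors the counts higher and lower were 3 and 0 without pair 2 and 3 and 0 without pair 3, and for chromatin regulators they were 6 and 0 and then 2 and 0. *SoxN* rose by 0.46 and *brm*, the ATPase of the Brahma complex, by 0.51, while *chinmo* and *kis*, a chromodomain remodeller, fell by 0.37 and 0.50, though neither was called without pair 2 or without pair 3. Heat shock proteins, induced by the treatment that all libraries share, were 4 higher and 4 lower of 17, from *Hsp70Bb* at 0.84 to *Hsp67Bc* at -1.20 (2 and 1 without the block, 2 and 2 without pair 3). Calls higher made up 30.8% of 13 circadian clock genes, 33.3% of 12 apoptosis genes and 31.6% of 19 autophagy genes, against 15.8% of all genes, and 6 of 24 Mediator subunits were called higher, while 1, 0, 2 and 2 genes of these lists were lower. Calls depend on counts, with 0.501% of protein-coding genes higher at up to 30 counts and 21.7% to 25.9% in the bins above 300. The median counts of the 4 lists were 2458, 384, 890.5 and 200, against 353 over all genes. Without the block 1, 3, 1 and 3 genes were called higher, without pair 2 they were 2, 3, 2 and 4, and without pair 3 they were 1, 2, 1 and 2.

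The 15 protein-coding genes with the largest decreases had log2 fold changes of -3.42 to -2.41. They were mitochondrial messenger RNAs (*ND3*, *ND2*, *ND1* and *COX2*), nuclear subunits of cytochrome oxidase (*COX7AL2* and *COX8*), immune and stress peptides (*TotM*, *Drsl4* and *Diedel*), male reproductive genes (*Mst57Db*, *Acp98AB*, *Acp95EF*, *Ebp* and *msopa*) and *CG43351*. *ND3* had the largest decrease, with 8.87, 7.82 and 7.80 CPM in the inputs and 0.742, 0.854 and 0.684 CPM in the IPs. Their exons span 175 to 1529 bases, against 592 to 2796 for the genes with the largest increases. In the FLAG IP 14 of the 15 were called lower as well. The 5 male reproductive genes and *TotM* were not called without the pair block, with adjusted p-values of 0.248, 0.336, 0.266, 0.374, 0.378 and 0.0914, and *Acp98AB*, *Ebp* and *msopa* were not called without pair 3.

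Nuclear genes of oxidative phosphorylation were lower in 28 of 74 cases and higher in none, with a median of -0.42. *COX8*, a small subunit of cytochrome oxidase, stood at 196, 192 and 181 CPM in the inputs and 21.6, 44.8 and 40.3 CPM in the IPs (log2 fold change -2.48, standard error 0.21, adjusted p = 0.00128), and *UQCR-6.4*, of complex III, fell by 2.15. The shift was largest in pair 1, whose median was -0.87, against -0.29 and -0.09 in pairs 2 and 3. Without pair 1, 29 genes were lower and 3 higher, and without the block 17 were lower. Mitochondrial ribosomal proteins followed more weakly, 16 of 72 lower and 2 higher (lower: 8 without the block and 4 without pair 3). Of 33 proteasome genes 13 were lower and 2 higher (lower: 8 without the block, 7 without pair 2 and 7 without pair 3), including the ATPase subunits *Rpt6* (37.6, 37.7 and 32.6 CPM in the inputs, 16.2, 19.2 and 19.9 CPM in the IPs) and *Rpt2*. Of 12 glycolysis genes *Gapdh2* and *Ald1* were lower, by 1.22 and 0.48 on the log2 scale, the second not without the block, pair 2 or pair 3.

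Genes of photoreceptors and synapses were mostly lower. Of 29 phototransduction genes 15 were lower and 1 higher, with a median of -0.36. *Arr1*, an arrestin that shuts off rhodopsin, was at 2907, 3008 and 2473 CPM in the inputs and 954, 1028 and 1136 CPM in the IPs (log2 fold change -1.43, standard error 0.12, adjusted p = 0.0012). *Gbeta76C*, the β subunit of the eye G protein, fell by 1.30 and *ninaG*, an enzyme of the visual chromophore, by 0.91. In contrast *ninaE* (21287, 24059 and 26781 CPM in the inputs, 22804, 26784 and 33410.1 CPM in the IPs) and the channel gene *trp* were not called, and *laza*, a lipid phosphatase, was higher, but not without the block or without pair 3. The number lower was 8 without the block, 8 without pair 2 and 7 without pair 3.

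Of 29 genes of the active zone and of vesicle release, 19 were lower and 2 higher (median -0.30), and the medians of the pairs lay between -0.34 and -0.30. *Snap25*, a SNARE of the presynaptic membrane, went from 256, 253 and 259.7 CPM in the inputs to 93.8, 94.5 and 103 CPM in the IPs (log2 fold change -1.40, standard error 0.07, adjusted p = 0.000124). *comt*, the NSF ATPase that takes SNAREs apart, fell by 0.99 and *Syt7*, a calcium sensor, by 0.77. The partners of *Snap25* on vesicle and membrane, *nSyb* and *Syx1A*, had log2 fold changes of 0.30 and 0.25 and are the 2 genes of the list called higher, but neither was called without the block, without pair 2 or without pair 3. The number lower was 12 without pair 2 and 9 without pair 3. Voltage-gated channel genes were lower in 8 of 21 and higher in 1, with *NaCP60E*, a sodium channel, at 304, 284 and 293 CPM in the inputs and 203, 185 and 200.3 CPM in the IPs (lower in 4 without the block, 2 without pair 2 and 1 without pair 3). Of 10 nicotinic acetylcholine receptor genes 5 were lower, among them *nAChRalpha4*, *nAChRalpha1* and *nAChRalpha3*, and *nAChRbeta3* was higher, though not without the block or pair 3 (lower: 3 without pair 2 and 2 without pair 3).

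Odorant-binding proteins are secreted chemosensory proteins. Of 29 odorant-binding protein genes 15 were lower and 1 higher (median -0.69, lower in 6 without the block). *Obp56e* was at 199, 191 and 135 CPM in the inputs and 55.6, 89.6 and 51.7 CPM in the IPs, a log2 fold change of -1.44. The gene called higher, *Obp19c*, had only 2.19, 1.58 and 0.772 CPM in the inputs and was not called without the block, pair 1 or pair 3. Of 39 cuticle protein genes 4 were higher (10.3%) and 5 lower (12.8%), shares below the 15.8% and 14.8% of all genes. Without pair 3 the cuticle counts were 0 and 2. The replication-independent histone genes *His3.3B* and *His4r* fell by 1.13 and 1.52.

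**Figure D4:**
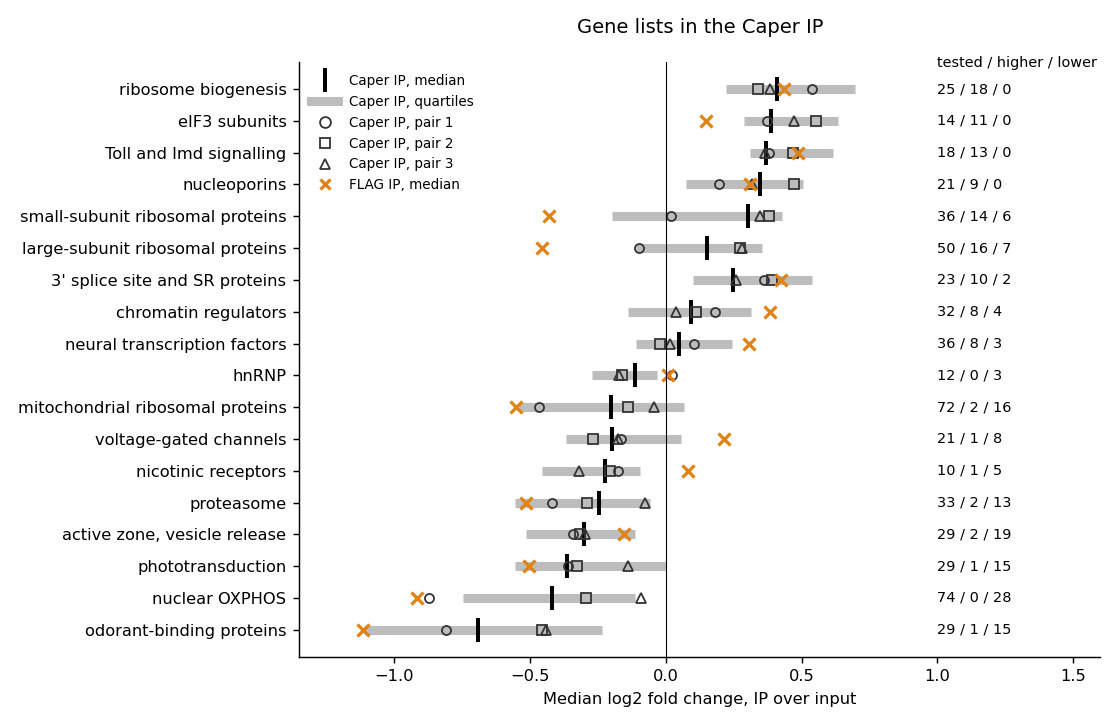
Median log2 fold change of each gene list in the Caper IP (black bar) with its quartiles (grey) and the median in each pair (open symbols), and the median in the FLAG IP (orange cross); the numbers give genes tested, called higher and called lower. Ribosome biogenesis, eIF3 and Toll and Imd genes lie to the right in every pair, odorant-binding proteins and nuclear OXPHOS genes to the left, and ribosomal proteins, channels and receptors have medians on opposite sides of 0 with the 2 antibodies.

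The lengths of the genes ran through these groups. Exon length here is the number of bases in the merged exons of a gene. Of 24 protein-coding genes of at most 300 exon bases, 17 were lower and none higher, with a median of -2.18. In the next bin, up to 600 bases, 142 of 359 were lower and 6 higher, and with the correction for gene length 78 were lower and 21 higher. Over both bins 159 of 383 genes were lower, and the count was 69 without the block and 89 without pair 3. Genes above 1000 and up to 4000 bases had the most increases, 550 of 3210 and 696 of 3247 in the bins below and above 2000 bases, against 302 and 307 decreases. At the long end the balance turned again. Above 8000 bases 28 of 480 genes were higher and 176 lower, with a median of -0.17. Without pair 2 the genes lower at this end were 74, without pair 3 they were 53, and with a correction for gene length they were 89, with 74 higher. The bins also differ in counts, with a median of 42.1 in the shortest and 4927 in the longest, and more genes are called where counts are high.

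Genes in many exon blocks were lower too. Of 318 genes with more than 16 blocks 10 were higher and 124 lower. Their median count was 3644, against 151 for genes with 1 block. Long genes have more exons, so the count was repeated among genes above 1000 and up to 4000 exon bases. There 147 of 678 genes with 1 exon were higher and 46 lower, and of 479 genes with 9 to 16 blocks 56 were higher and 92 lower. Genes spread over a long stretch of the chromosome were likewise lower, 33 of 78 above 100000 bases from start to end. Read pairs that mapped to 1 place but to no exon made up 3.56%, 3.74% and 4.17% of such alignments in inputs 1, 2 and 3 and 3.92%, 4.53% and 4.38% in IPs 1, 2 and 3, a little more in each IP than in its input. These shares describe genes, which are not replicates, and the length and class of the RNA cannot be told apart where they move together.

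**Figure D5:**
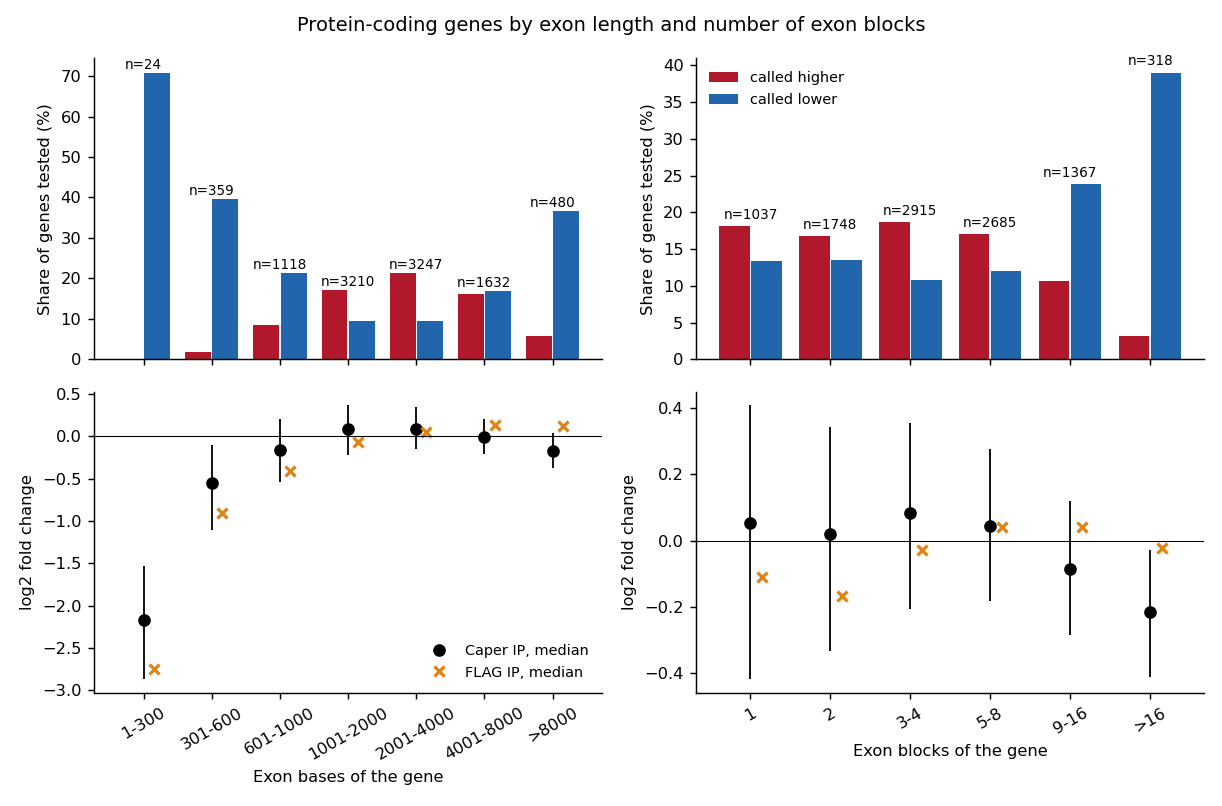
Upper panels give the share of protein-coding genes tested that were called higher (red) or lower (blue), by exon bases (left) and exon blocks (right), with the number of genes in each bin. Lower panels give the median log2 fold change in the Caper IP (black, with quartiles) and the FLAG IP (orange cross). Calls higher peak at 21.4% between 2000 and 4000 bases, calls lower reach 70.8% in the shortest and 36.7% in the longest bin, and above 8000 bases the FLAG median (0.12) lies above 0 where the Caper median (-0.17) lies below it.

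On chromosome 4, a small and largely heterochromatic chromosome, 42 of 94 genes tested were lower and 2 higher, with a median of -0.30. Among genes of like exon length, 7 of 23 chromosome 4 genes above 2000 and up to 4000 exon bases were lower and none higher. On the other chromosomes 300 of 3224 such genes were lower and 696 higher. The chromosome 4 genes had more exon blocks (median 9 against 5) and more counts (median 1372 against 533). *bt*, a giant muscle kinase, *apolpp*, the lipoprotein precursor of the fat body, *Syt7* and *Gat* are among the genes on it and were lower, the first 2 of these not without the block. The count lower was 26 without the block, 27 without pair 2 and 23 without pair 3. On the X chromosome 348 of 1769 genes were higher and 214 lower, shares of 19.7% and 12.1% beside 15.8% and 14.8% of all genes, with a median of 0.09 (153 and 108 without the block, 193 and 134 without pair 2, 107 and 91 without pair 3).

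The pairs differed in genes of other tissues. The 5 male reproductive genes named above belong to tissues outside the head, and their levels differed between the inputs and were lowest there in input 3. *Mst57Db* was at 41.6, 11.6 and 2.57 CPM in inputs 1, 2 and 3 and at 6.89, 0.0776 and 0.242 CPM in IPs 1, 2 and 3 (log2 fold change -3.34, standard error 0.53, adjusted p = 0.00609). Input and IP ranges overlapped, and the log2 ratios were -2.58, -6.03 and -2.97. Over 22 such genes tested, a set chosen after its values were seen, 15 were lower and 1 higher, with medians of -1.85, -3.05 and -1.02 in pairs 1, 2 and 3. The fat body marker *Yp1*, a yolk protein made in females, was at 6887, 3966 and 1646 CPM in the inputs and 12809.5, 2329 and 1817 CPM in the IPs, and was not called (log2 ratios 0.90, -0.77 and 0.14). The median of the 12 fat body genes was 0.19, -0.80 and -0.02 in the 3 pairs, and 1 was higher and 2 lower. Without pair 2 the fat body counts were 2 and 1 and the median of the fit went from -0.16 to 0.08. Of 11 glial markers 4 were higher and 4 lower, and the counts were 2 and 3 without the block, 2 and 4 without pair 2 and 1 and 3 without pair 3. Of 14 muscle markers 2 were higher and 1 lower. Of 7 neuronal markers 1 was higher and 2 were lower, none of which was called without the block, without pair 2 or without pair 3. Among glia, *repo*, the glial master regulator, rose by 0.55, and *wrapper* fell by 1.09 but was not called without the block. The part of tissue content in the calls was not tested.

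The same genes were set beside the FLAG IP, which shares no library with the Caper IP. On all 12 libraries 729 of 11012 genes (6.62%) had a higher and 599 (5.44%) a lower log2 fold change with the FLAG antibody than with the Caper antibody. Without the pair block these counts were 90 and 16. Without Caper pair 1 they were 1104 and 1164, without Caper pair 2 562 and 349, and without Caper pair 3 188 and 70. The FLAG pairs were not left out. Scaling by library size alone turned the balance to 573 and 853. Ribosomal proteins stood apart. Of 50 large-subunit genes 39 and of 36 small-subunit genes 26 were lower with FLAG and none higher, and their medians were -0.46 and -0.43 with FLAG against 0.15 and 0.30 with Caper. Without the pair block only 16 genes of all were lower, so most of these calls rest on the block. The list counts were not repeated with Caper pairs left out, and the Caper medians of pair 1 were -0.10 and 0.02. *RpL8* had log2 fold changes of 0.70 with Caper and 0.10 with FLAG (adjusted p = 0.00952 for the difference), and *RpS9* had 0.60 and -0.10 (adjusted p = 0.00715). eIF3 genes were lower with FLAG in 4 of 14, elongation factors in 4 of 7, and nuclear OXPHOS genes in 14 of 74 and higher in 1.

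Neuronal and chromatin genes differed in the other direction. The lists below hold long genes, with median exon lengths from 4355.5 to 10153 bases. Of all protein-coding genes above 8000 exon bases, the FLAG value was higher for 195 of 480 (5 lower). Between 4000 and 8000 bases it was higher for 309 of 1632 (25 lower), and between 600 and 1000 bases for 2 of 1118 (111 lower). Length and class were not told apart. Without the pair block 90 genes of all had a higher FLAG value, so most of the calls above 8000 bases rest on the block. The FLAG value was higher for 14 of 32 chromatin regulators, 11 of 36 neural transcription factors (1 lower), 10 of 29 active zone and release genes, 8 of 21 voltage-gated channels (1 lower) and 6 of 10 nicotinic receptors. *eag*, a potassium channel, was lower in the Caper IP (-0.42) and had a log2 fold change of 0.28 with FLAG (adjusted p = 0.00489 for the difference), and for *NaCP60E* the values were -0.58 and 0.06 (adjusted p = 0.00315). *kis* differed alike, at -0.50 and 0.26 (adjusted p = 0.00274). Within the mitochondrial genome the RNAs parted. The log2 fold change of *lrRNA* was -4.76 with Caper and -2.02 with FLAG (adjusted p = 0.00122), whereas *ND5* went from -1.97 to -3.50 (adjusted p = 0.000739) and *ND1* from -3.03 to -4.33 (adjusted p = 0.00284). Of the 14 mitochondrial genes tested, 6 had a lower and 2 a higher value with FLAG. For the 7SL and RNase RNAs no difference between the antibodies was called.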

How the data were processed

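Heads from 1 genotype were used for 3 Caper IPs, 3 FLAG IPs and an input for each. The authors trimmed reads with fastp 0.20.1, aligned them with STAR 2.7.6a to dmel_r6.36 and counted read pairs over exons by strand with featureCounts (Subread 2.0.1) at a mapping quality of at least 20, and the deposited values are these raw counts, not normalized. RNA was prepared as total RNA with probes against ribosomal RNA, so nuclear ribosomal RNA is not measured faithfully, and RNAs in many copies are undercounted. The methods do not say whether the probes cover mitochondrial ribosomal RNA, so *lrRNA* and *srRNA* may not be measured faithfully either.

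Counts were fitted with edgeR 4.0.16 (R 4.3.3, quasi-likelihood test, TMM scaling, filterByExpr with a minimum count of 10, Benjamini-Hochberg adjustment). The titles name the input of each IP, so pairs entered as a block, and the correlations within pairs are given in the report. The FLAG minus Caper difference came from 1 fit on all 12 libraries. CPM used TMM library sizes. Pair ratios used a prior count of 2. On simulated counts for the Caper comparison (10623 genes, 200 changed by 2-fold or more) 99.0% of changed genes were recovered, and 4.81% of the calls were false. Smaller changes, which make up most calls in the data, were not simulated, and far fewer genes were changed than were called in the data. The simulation also gave all genes 1 dispersion and no shift in composition, and the IP and input of every pair a shared effect. In the data the libraries of pair 2 correlated little (0.102), so these rates do not carry over to the calls in the data. An exact permutation test of 3 against 3 cannot go below 0.1. DESeq2 1.42.0, limma 3.58.1 (voom), other scalings and filters, a length correction and leaving out libraries were tried. Symbols were matched by position to RefSeq for 17170 genes and 17181 of 17612 have one. Named genes are *Caper*, the 15 protein-coding and 8 noncoding genes with the largest called change each way (mean count of at least 50, all pairs alike), the 5 genes with the largest share, and up to 3 called genes each way per list. The members and lists were chosen with earlier results of these data known.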

Additional observations from a re-analysis of the deposited data

Results flagged for a closer look

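Groups of 3 libraries were not tested for outlying samples. The results below differed between the FLAG and the Caper comparison by the test of the difference on all 12 libraries. Over all genes, 729 had a higher and 599 a lower log2 fold change with FLAG. Among the genes with the largest decreases, the FLAG value minus the Caper value was -1.07 for *ND2*, -1.28 for *ND1*, -1.12 for *COX7AL2* and -0.86 for *COX8*. It was 1.23 for *snoRNA:CG32479-a*, 1.05 for *snoRNA:Psi28S-291* and 2.41 for the ribosomal DNA gene FBgn0267508, which were lower in both comparisons and less so with FLAG.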

How the results depend on the processing

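For the Caper comparison, the counts of genes called stayed within 1.5 times of 1708 higher and 1599 lower with DESeq2 and the block, limma voom, RLE or upper quartile scaling, other count filters, protein-coding genes alone, a length correction, the mitochondrial genome left out and all 12 libraries in 1 fit. Without the replicate block they were 682 and 812, and with DESeq2 and no replicate block 939 were higher. Scaling by library size alone gave 2944 higher and 1008 lower, and moved the median over all genes from 0.02 to 0.17 on the log2 scale. Leaving out 1 pair gave 487 to 1494 higher and 693 to 1636 lower. Leaving out 1 library without the block gave 5 to 1159 higher and 107 to 1153 lower. The values without input 1 were 44 and 202, without input 2 they were 5 and 107, and without input 3 they were 275 and 342. Without IP 2 they were 121 and 270, and without IP 3 they were 265 and 353. For FLAG minus Caper, the counts without the replicate block were 90 higher and 16 lower. Leaving out 1 Caper pair gave 188 to 1104 and 70 to 1164, and the FLAG pairs were not left out. With library size scaling, the difference counts were 573 higher and 853 lower in place of 729 and 599. The cause of these differences was not tested. No called gene named in the text changed the sign of its log2 fold change under the alternatives, but list medians near 0 did. With library size scaling this held for the hnRNP, Mediator, glia, muscle, cuticle and named lncRNA lists. Leaving out 1 pair turned the medians of the exon junction, neuronal mRNA, neural transcription factor, Mediator, cuticle, fat body, neuronal marker, autophagy, clock and named lncRNA lists. The length correction turned those of the autophagy, transfer RNA and named lncRNA lists, and DESeq2 that of the last. The inputs hold fewer counts than the IPs, which limits weakly expressed genes.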
